A study of Mus musculus with 18 samples.

Results

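The proteasome genes were the 50 genes whose symbol begins with Psma, Psmb, Psmc, Psmd, Psme, Psmf or Psmg followed by a digit, out of 19938 genes measured on mouse expression arrays. They were chosen by symbol alone, with no measured value. Of these, 48 encode proteasome subunits, activators, inhibitors or assembly factors. The other two, Psmc3ip and Psme3ip1, are named for binding a proteasome protein and are no subunits, so they were left out of every count below. The 48 comprised 7 alpha and 7 beta subunits of the constitutive core, the 3 immunoproteasome subunits Psmb8, Psmb9 and Psmb10, the 2 tissue-specific core subunits Psma8 (testis) and Psmb11 (thymus), 6 ATPases and 11 non-ATPases of the regulatory particle, 5 activators or inhibitors, and 7 assembly chaperones.

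The arrays measured RNA of alveolar type II cells isolated from mice 7 to 8 weeks old, in 6 groups of 3 arrays each. Control cells came from littermates with floxed Cebpa alleles that lacked either the rtTA or the Cre transgene. Cebpa-deleted cells carried the floxed alleles with an rtTA transgene driven from the CCSP promoter, which is active in airway Clara cells. The genotype label of the deleted cells lists no Cre, and the deletion itself, in Clara cells from early gestation and in type II cells from near term, is given by the study design. Each genotype was sampled at 0, 2 and 24 h of hyperoxia according to the design, although the description of every sample reads air. The labels name no animals, so p-values measure the spread between these arrays, which may be technical.

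The proteasome degrades proteins tagged with ubiquitin. A core particle of stacked alpha and beta rings holds the proteolytic sites, and a regulatory particle of ATPases and non-ATPase subunits binds, unfolds and feeds in the substrate. Interferon-gamma induces the immunoproteasome subunits, which take the place of the constitutive catalytic subunits and favour peptides for presentation on MHC class I, and it also induces the activator subunits Psme1 and Psme2.

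Cebpa, the targeted gene, lay between 10.95 and 11.04 on the log2 scale in control cells at 0 h and between 10.43 and 10.66 in deleted cells, a difference of -0.43 that was not called (limma, adjusted p = 0.429). It lay between 10.43 and 10.68 against 8.96 to 9.98 at 2 h (adjusted p = 0.00461), and between 10.12 and 10.45 against 8.26 to 8.66 at 24 h (adjusted p = 8.19e-06). The interquartile range of an array's values was 2.89 to 3.06 at 0 h, 2.13 to 2.55 at 2 h, 2.44 to 2.52 in control cells at 24 h, and 1.89, 1.82 and 2.13 in the deleted 24 h arrays numbered 1, 2 and 4. On an array with a narrow range, values lie nearer to the array's middle, so high levels read lower and low levels read higher than on one with a wide range. The counts of members, and most changes of named members, are therefore also given after a second quantile normalization, which gives every array the same distribution of values. Levels per array and means over subunits are those of the deposited values. The Cebpa differences were -0.38, -1.12 and -1.54 after that normalization. In bulk RNA, fewer cells of a type and less RNA per cell cannot be told apart.

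The 250 bases before the transcription start of 4 proteasome genes are shown here because these genes, which fill different roles, all fell between 0 and 2 h in control cells under both normalizations, as described further on. Psmb5 is a constitutive catalytic subunit and Psmb8 its inducible counterpart, and Psme2 is an activator subunit. Psmd8 is a regulatory non-ATPase that had the largest fall in deleted relative to control cells at 24 h in the deposited values. Sequences are from RefSeq in the build GRCm38.p6, read 5′ to 3′ along the gene's strand, and capitals mark motif matches.
Psmb5, chr14:54617996-54618245, minus strand: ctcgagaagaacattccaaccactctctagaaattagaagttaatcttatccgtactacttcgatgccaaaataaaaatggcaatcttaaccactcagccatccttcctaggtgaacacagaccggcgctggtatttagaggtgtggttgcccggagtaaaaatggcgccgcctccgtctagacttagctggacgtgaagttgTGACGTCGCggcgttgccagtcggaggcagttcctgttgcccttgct
Psmb8, chr17:34197945-34198194, plus strand: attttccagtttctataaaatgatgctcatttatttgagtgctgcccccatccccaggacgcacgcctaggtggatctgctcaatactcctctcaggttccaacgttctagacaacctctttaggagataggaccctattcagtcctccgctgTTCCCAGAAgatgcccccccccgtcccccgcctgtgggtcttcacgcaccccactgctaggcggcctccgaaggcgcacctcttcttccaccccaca
Psmd8, chr7:29180674-29180923, minus strand: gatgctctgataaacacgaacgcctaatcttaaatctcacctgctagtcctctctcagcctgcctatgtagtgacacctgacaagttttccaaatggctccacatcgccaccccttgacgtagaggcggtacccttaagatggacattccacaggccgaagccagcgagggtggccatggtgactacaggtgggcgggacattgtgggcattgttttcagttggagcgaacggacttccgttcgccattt
Psme2, chr14:55591022-55591271, minus strand: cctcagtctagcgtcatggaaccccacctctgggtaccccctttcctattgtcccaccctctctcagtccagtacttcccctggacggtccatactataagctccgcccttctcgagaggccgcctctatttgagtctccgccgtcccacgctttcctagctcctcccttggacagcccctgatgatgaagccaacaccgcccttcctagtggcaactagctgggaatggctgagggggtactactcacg
In the Psmb5 stretch, the capitals TGACGTCGC lie 47 to 39 bases before the start and match TGACNNNGC, the core of the antioxidant response element. In the Psmb8 stretch, the capitals TTCCCAGAA lie 97 to 89 bases before the start and match TTCNNNGAA, the gamma-activated site bound by STAT factors. The Psmd8 and Psme2 stretches held no match to the 4 motifs searched.

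Across the members, 40 of the 48 matched a promoter window in the RefSeq table, with 43 windows of 300 bases that run from 250 before to 50 after the start. Both strands were searched, and matches of different motifs could overlap. The C/EBP core TTGCNNAA was found in 4 of the 43 windows (Psmf1, Psmb3, Psma6 and Psmb5) and in 10.8% of all 32851 windows in the table. The antioxidant response core was found in 6 (Psmd9, Psme4, Psmb6, Psmd12, Psmc6 and Psmb5), against 12.4% of all windows. The interferon-stimulated response motif, searched as GAAA repeated after any 2 bases, was found in 5 (Psmd4, Psmd9, Psmb3, Psmg4 and Psme1), against 3.44%, and the gamma-activated site in 3 (Psmd2, Psmg1 and Psmb8), against 8.3%. The C/EBP match of Psmb5 lies outside the stretch printed above. These are counts of letters in a window and no record of binding.

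Whether deletion of Cebpa altered proteasome expression before hyperoxia was addressed by the 0 h arrays. No proteasome gene differed between genotypes at 0 h or at 2 h in the limma fit at an adjusted p below 0.05. At 0 h the median log2 change over the 48 genes was 0.04 and 2 genes had an unadjusted p below 0.05, while 0.858% of all genes were called. At 2 h the median was 0.06 and 1 gene had an unadjusted p below 0.05, while 1.4% of all genes were called. The counts were also 0 at both times with the trend and robust options of limma and after the second quantile normalization, under which 0.0401% and 1.74% of all genes were called. Groups of arrays did not overlap for 6 members at 0 h and for 6 at 2 h, against 17.3% and 12.5% of all genes.

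The smallest p-values at these times belonged to an ATPase, to catalytic subunits and to activators. Psmc1, an ATPase of the regulatory particle, differed by 0.28 at 0 h (limma, adjusted p = 0.217). Psmb9 read 8.28, 8.24 and 8.24 in control cells at 0 h and 8.35, 8.51 and 8.67 in deleted cells, a difference of 0.25 (limma, adjusted p = 0.455) without overlap of the groups. Psmb6, the constitutive subunit that Psmb9 replaces, differed by 0.17 at 0 h (adjusted p = 0.685).

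Psmb8 came closest to the threshold at 2 h. It read 7.19, 7.39 and 7.32 in control cells and 7.89, 7.46 and 7.71 in deleted cells. All 3 deleted arrays lay above all 3 control arrays, and the log2 difference was 0.39 with a standard error of 0.10 (limma, adjusted p = 0.072, and 0.0537 after the second quantile normalization). In the fit restricted to the upper 60% of genes by level, 1 member was called higher at 2 h, as were 2.68% of those genes. With the array range as a covariate, 1 member was called lower at 2 h, the alpha subunit Psma2 (-0.24, limma, adjusted p = 0.0478). At the same time Psme2 differed by 0.19, Psmb9 by 0.17 and the nuclear activator Psme3 by 0.13, none of them called.

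At 24 h, 30 of the 48 proteasome genes were lower and 2 were higher in deleted than in control cells in the deposited values, with a median log2 change of -0.33. That share stands beside a wide background: 26.4% of all genes were called lower and 24.3% higher, and 43.8% of the genes in the upper 60% by level were lower. Of all genes at mean levels of 8 to 9, 9 to 10 and 10 to 11, where 41 of the members lie, 59.1%, 68.7% and 64.7% were lower, a share close to that of the members. The second quantile normalization left 7 members higher and 5 lower, with a median of -0.01, and 16.5% of all genes were higher and 17.1% lower. The deleted and control arrays did not overlap for 37 members, against 62.1% of all genes, and 21 of the 30 lower genes were called in every fit that left out 1 array. The share of all genes called in every such fit was not counted.

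The size of the shift was close to that of other genes of the same level. The 20 members with a mean level between 9 and 10 had a median change of -0.34, and all 1850 genes in that range had -0.37. The 16 members between 8 and 9 had -0.34 against -0.32 for all genes there, and the 5 members between 10 and 11 had -0.38 against -0.36. The medians of all genes in these 3 ranges were -0.03, -0.06 and -0.01 after the second quantile normalization. Without the deleted 24 h arrays numbered 1 and 2, which had the narrowest ranges, no member was called by limma (10 at an unadjusted p below 0.05) and the median was -0.18, with the single deleted array left there assumed to vary like the other groups. When the model held each array's interquartile range as a further term, no member was called by limma, none had an unadjusted p below 0.05, and the median was 0.00. All 3 deleted 24 h arrays had narrower ranges than all 3 control arrays. This fit therefore cannot tell the genotype difference at 24 h from the array range.

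**Figure D1:**
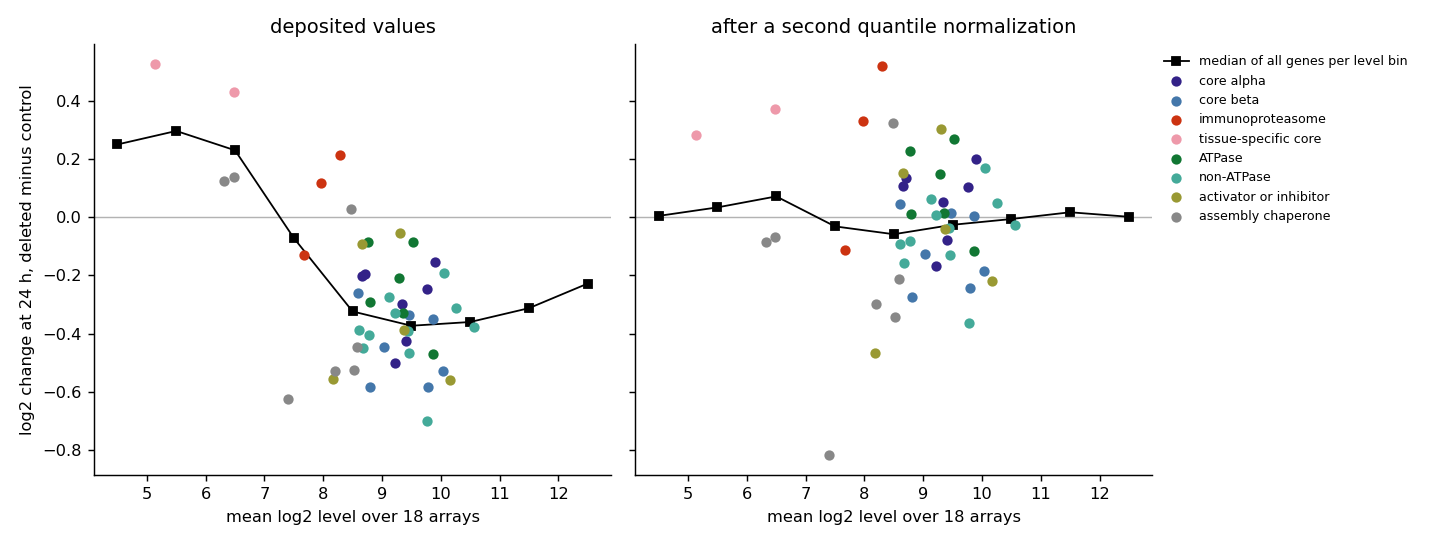
Log2 change at 24 h, deleted minus control, against the mean log2 level over 18 arrays, in the deposited values and after the second quantile normalization, with the proteasome genes marked by role and all genes summarised behind them. In the deposited values the members at levels of 9 to 10 have a median of -0.34 beside -0.37 for all genes there, and after the second normalization both lie near 0.

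The core subunits form the proteolytic barrel. All 7 constitutive beta subunits fell at 24 h, with a median of -0.45, and 4 of the 7 alpha subunits did, with a median of -0.25. Psmb1, a beta subunit without a proteolytic site, read 8.79, 8.77 and 8.83 in control cells and 8.06, 8.19 and 8.40 in deleted cells, a fall of 0.58 on the log2 scale (limma, adjusted p = 0.00313). The groups did not overlap, and after the second quantile normalization the change was -0.27 (adjusted p = 0.0576).

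Psmb3, a structural beta subunit, varied more among the deleted arrays. It read 9.59, 9.61 and 9.54 in control cells and 9.06, 8.50 and 9.43 in deleted cells, a change of -0.58 (limma, adjusted p = 0.00657). Deleted array number 2 was the lowest by far, and the change was -0.24 after the second quantile normalization (adjusted p = 0.141).

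Among the catalytic subunits, Psmb7, which carries the trypsin-like site, read 10.14, 10.03 and 10.07 in control cells and 9.44, 9.47 and 9.76 in deleted cells (change -0.53, limma, adjusted p = 0.000798, and -0.18 with adjusted p = 0.078 after the second quantile normalization). Psmb6, with the caspase-like site, read 9.92, 9.83 and 9.81 against 9.50, 9.29 and 9.71 (change -0.35, adjusted p = 0.00902). Psmb5, with the chymotrypsin-like site, read 8.58, 8.42 and 8.52 against 8.25, 8.23 and 8.25 (change -0.26, adjusted p = 0.049). The groups did not overlap for any of these 3 genes. The Psmb5 call was lost in all 6 fits that left out 1 array of these groups. The second quantile normalization turned the change to 0.05 for Psmb5 and 0.0047 for Psmb6.

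In the regulatory particle, 3 of the 6 ATPases (median -0.25) and 9 of the 11 non-ATPases (median -0.39) fell at 24 h. Together, the 14 constitutive core subunits had a median of -0.34 with 11 lower, and the 17 regulatory subunits a median of -0.33 with 12 lower. Of the 14 core subunits, 0 were called by limma after the second quantile normalization (4 at an unadjusted p below 0.05), while 2 of the 17 regulatory subunits were higher and 1 was lower. The higher ones were the ATPases Psmc3 (0.23) and Psmc5 (0.27).

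Psmd8, a non-ATPase of the lid, was the lower one, and it had the largest fall of all members in the deposited values. It read 9.98, 9.82 and 10.08 in control cells and 9.19, 9.15 and 9.44 in deleted cells at 24 h. The groups stood clearly apart, and the change was -0.70 with a standard error of 0.11 (limma, adjusted p = 0.000219). The change was -0.36 after the second quantile normalization (adjusted p = 0.00285).

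Of the 5 activators and inhibitors, 3 fell at 24 h, with a median of -0.39. Psme1, which forms a ring activator with Psme2, read 10.29, 10.32 and 10.12 in control cells and 9.49, 9.52 and 10.03 in deleted cells (change -0.56, limma, adjusted p = 0.00222). Array number 4 was nearer to the controls than the other two, and the second quantile normalization left a change of -0.22 (adjusted p = 0.0908). Psme2 itself read 8.18, 7.98 and 8.02 against 7.79, 8.12 and 7.99, groups that overlapped, with a change of -0.09 (adjusted p = 0.51).

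Psmf1, an inhibitor of the core particle in purified systems, was lower under both normalizations. It read 8.12, 8.06 and 8.06 in control cells and 7.35, 7.43 and 7.79 in deleted cells, without overlap. The change was -0.56 (limma, adjusted p = 0.00196) and -0.47 after the second quantile normalization (adjusted p = 0.00496).

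The assembly chaperones held the other members that were lower both ways. Of the 7, 4 fell at 24 h in the deposited values (median -0.45), and 3 were lower and 1 higher after the second quantile normalization. Psmg2, which with Psmg1 guides assembly of the alpha ring, read 7.51, 7.21 and 7.41 in control cells and 6.83, 6.55 and 6.88 in deleted cells. Every deleted array lay below every control array, with a change of -0.62 and a standard error of 0.14 (limma, adjusted p = 0.00245). Its change was -0.82 after the second quantile normalization (adjusted p = 0.0015).

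Psmg1 read 8.61, 8.41 and 8.22 against 8.02, 7.71 and 7.92, a change of -0.53 that was -0.30 after the second quantile normalization (limma, adjusted p = 0.00147 and 0.0296). Psmd10, a chaperone of the regulatory base also known as gankyrin, read 8.28, 8.33 and 8.28 against 7.72, 7.54 and 8.06. Its change was -0.52, and -0.34 after the second quantile normalization (adjusted p = 0.00308 and 0.0183). Neither gene's groups overlapped. In all, Psmd8, Psmd10, Psmf1, Psmg1 and Psmg2 were the 5 members lower under both normalizations. The share of all genes lower under both was not counted, and 17.1% of all genes were lower after the second. After the second normalization the chaperone Psmd9 (0.32) and the activator Psme3 (0.30) were higher.

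The 2 higher members in the deposited values were the tissue-specific core subunits. Psmb11, the catalytic subunit of the thymus proteasome, read 6.47, 6.69 and 6.62 in control cells and 7.04, 7.14 and 6.89 in deleted cells (change 0.43, limma, adjusted p = 0.00722). Its groups did not overlap and it was also higher after the second quantile normalization (0.37, adjusted p = 0.0178). Psma8, the testis alpha subunit, read 4.54, 4.88 and 4.63 against 5.07, 5.53 and 5.04 (change 0.53, adjusted p = 0.00865), and its change after the second normalization was 0.28 (adjusted p = 0.106). These genes are at low levels, where the median change of all genes was positive (0.23 at levels of 6 to 7 and 0.30 at 5 to 6).

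Both genes that are no subunits stayed uncalled in the deposited values at 24 h. Psmc3ip, a meiotic recombination factor that binds Psmc3, changed by -0.22, and by -0.45 after the second quantile normalization (limma, adjusted p = 0.0259). Psme3ip1, which binds Psme3, changed by 0.12, and by 0.32 after it (adjusted p = 0.0264).

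**Figure D2:**
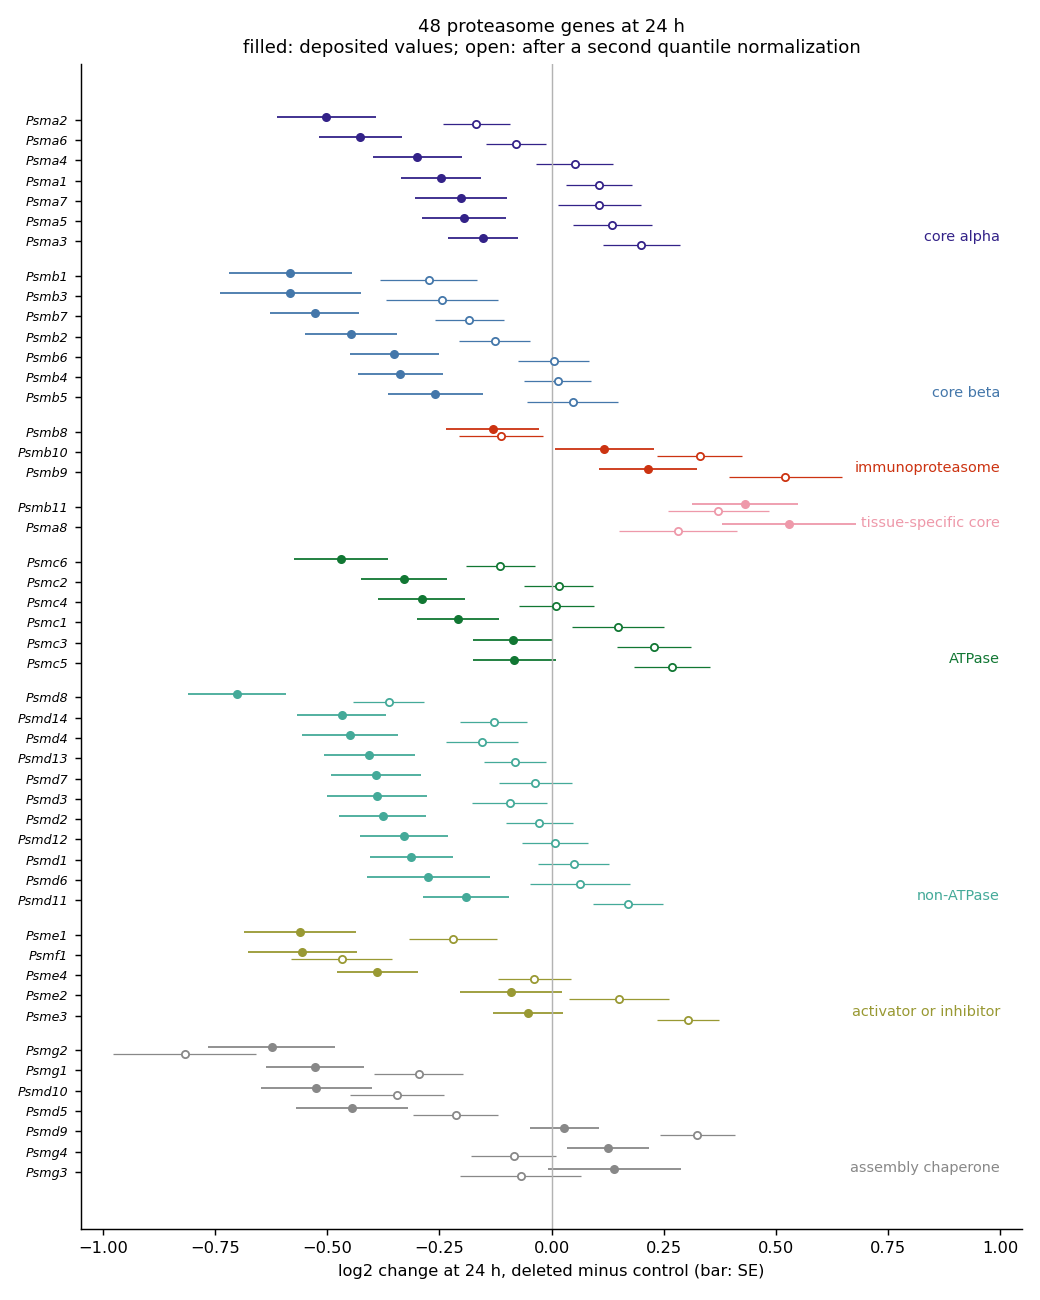
Log2 change at 24 h, deleted minus control, of each proteasome gene, grouped by role, in the deposited values (filled) and after the second quantile normalization (open), with bars of 1 standard error. Psmd8 (-0.70) and Psmg2 (-0.62) have the largest falls in the deposited values, and Psmb11 (0.43) and Psma8 (0.53) are the genes called higher.

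Of the 3 immunoproteasome subunits, 0 were called by limma at 24 h in the deposited values, 0 had an unadjusted p below 0.05, and their median change was 0.12. Psmb9 read 8.14, 8.01 and 8.21 in control cells and 8.16, 8.55 and 8.30 in deleted cells, a change of 0.22 (limma, adjusted p = 0.104). Psmb10 read 7.90, 7.69 and 7.70 against 7.97, 7.73 and 7.95, a change of 0.12 (adjusted p = 0.37). Psmb8 read 7.48, 7.43 and 7.34 against 7.30, 7.32 and 7.23, a change of -0.13 (adjusted p = 0.292). The groups overlapped for Psmb9 and Psmb10, while the deleted arrays lay below the controls for Psmb8. With the second quantile normalization, Psmb9 (0.52, adjusted p = 0.00525) and Psmb10 (0.33, adjusted p = 0.0139) were higher, and Psmb8 changed by -0.11.

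The mean over the 3 immunoproteasome subunits and that over the 31 constitutive subunits were also taken on each array. The immunoproteasome mean was 7.84, 7.71 and 7.75 in control cells and 7.81, 7.86 and 7.83 in deleted cells at 24 h, and these groups overlapped. At 0 h it was 8.19, 8.16 and 8.18 against 8.16, 8.38 and 8.48, with overlap. At 2 h it was 7.75, 7.81 and 7.76 against 8.04, 7.90 and 7.98, without overlap. The constitutive mean at 24 h was 9.32, 9.26 and 9.24 in control cells and 8.87, 8.82 and 9.08 in deleted cells, and these groups did not overlap. At 0 h the constitutive mean was 9.74, 9.72 and 9.69 against 9.69, 9.84 and 9.81, and at 2 h it was 9.13, 9.17 and 9.33 against 9.29, 9.30 and 9.16, with overlap at both times.

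**Figure D3:**
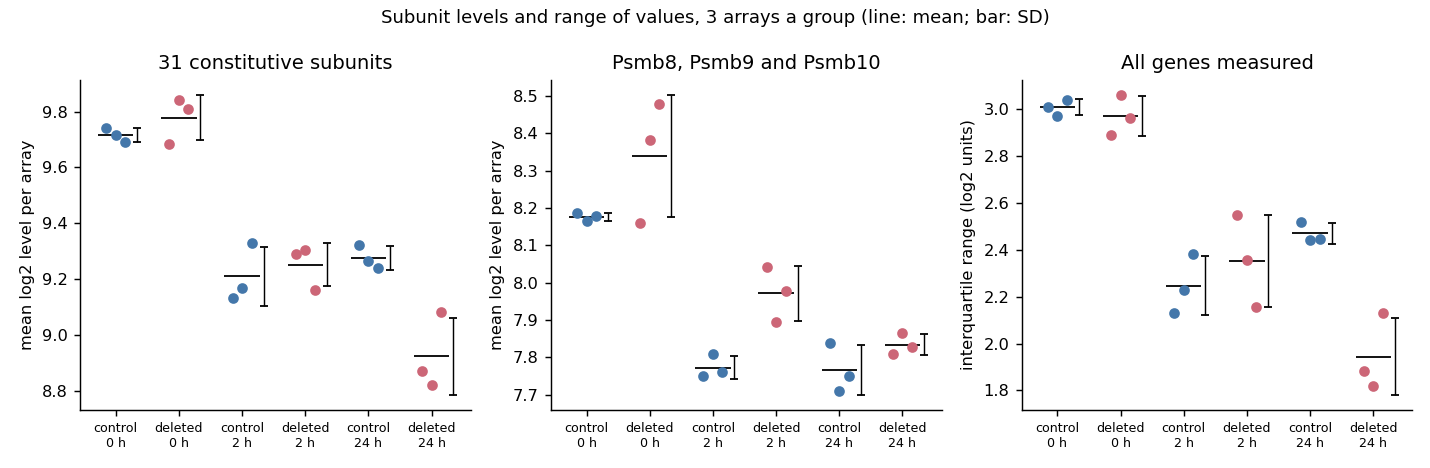
Mean log2 level per array of the proteasome classes for both genotypes at the 3 times, with 1 point per array, a line at the group mean and a bar of 1 SD, beside the interquartile range of all genes on that array. The constitutive mean of the deleted 24 h arrays lies between 8.82 and 9.08, below the 9.24 to 9.32 of the controls, while the immunoproteasome mean overlaps between genotypes at that time.

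Each inducible subunit was then set against the constitutive subunit it replaces, as the difference of their changes between genotypes, averaged over the 3 times. Psmb9 exceeded Psmb6 by 0.26 (exact permutation test within times over 8000 relabelings, two-sided p = 0.00875, adjusted over the 3 pairs 0.0131). Psmb10 exceeded Psmb7 by 0.25 (exact permutation p = 0.0155, adjusted 0.0155). Psmb8 exceeded Psmb5 by 0.21 (exact permutation p = 0.00875, adjusted 0.0131).

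The 3 pairs differed in when this arose. For Psmb9 and Psmb6 the difference was 0.08 at 0 h, 0.14 at 2 h and 0.57 at 24 h. For Psmb10 and Psmb7 it was 0.07, 0.04 and 0.65 at these times. For Psmb8 and Psmb5 it was 0.18, 0.33 and 0.13, largest at 2 h. At a single time the exact permutation p was 0.1, the smallest that 3 arrays against 3 allow, for the first and the second pair at 24 h, and 0.2 for the third. Whether a pair's value differed between times was not tested.

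After the second quantile normalization the averages were 0.23 and 0.19 for the first and the second pair (both adjusted exact permutation p = 0.0469). The average was 0.11 for Psmb8 and Psmb5 (adjusted exact permutation p = 0.227). The 24 h value of Psmb8 and Psmb5 turned to -0.16, with every deleted array below every control array (exact permutation p = 0.1). At 24 h the first and the second pair had 0.52 and 0.51 (exact permutation p = 0.1 for each). Beside the pairs stand the changes of other genes of their levels. All genes at levels of 8 to 9, where Psmb9 and Psmb5 lie, had a median change of -0.32 at 24 h, those at 9 to 10, where Psmb6 lies, -0.37, those at 10 to 11, where Psmb7 lies, -0.36, and those at 7 to 8, where Psmb8 and Psmb10 lie, -0.07.

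**Figure D4:**
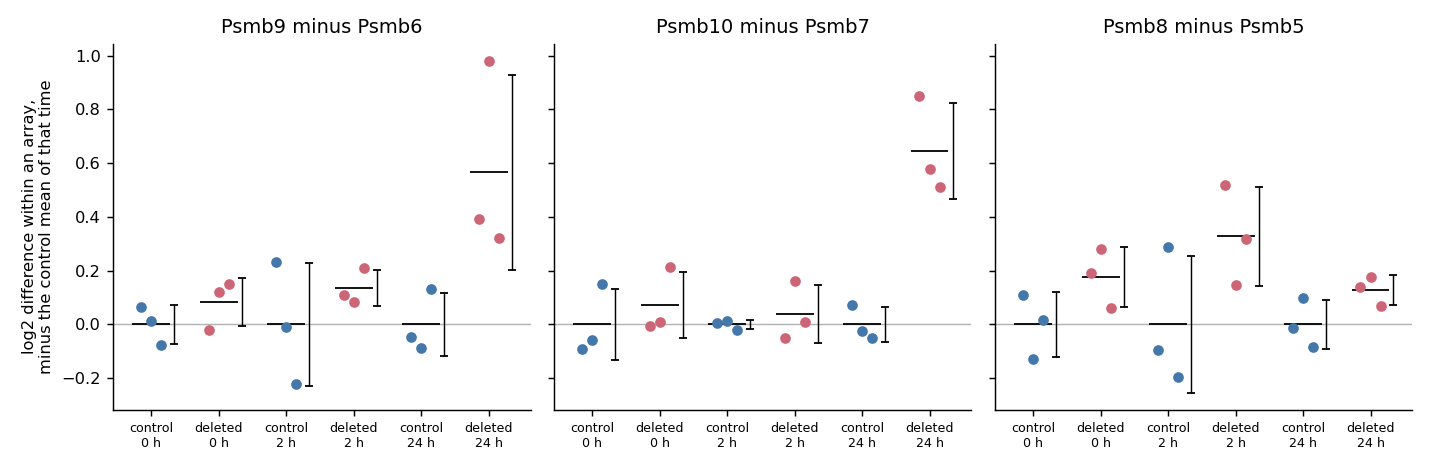
Log2 difference of each inducible subunit from the constitutive subunit it replaces on each array, less the control mean of that time, so that the control groups centre on 0, with a line at the group mean and a bar of 1 SD. In deleted cells the Psmb9 pair reaches 0.57 and the Psmb10 pair 0.65 at 24 h, while the Psmb8 pair is highest, at 0.33, at 2 h.

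Markers of other cells moved in the same arrays. The mean level of 11 lymphocyte markers was 7.54 to 7.80 in deleted and 6.57 to 7.10 in control cells at 24 h. None was called by limma at 0 or 2 h (1 and 2 at an unadjusted p below 0.05). At 2 h all 11 had a positive change (median 0.31), with means of 7.42 to 8.24 in deleted and 7.04 to 7.50 in control cells. Of 11 macrophage markers at 2 h, 10 had a positive and 1 a negative change (median 0.42). Of these, 0 were called by limma and 4 had an unadjusted p below 0.05. The mean of 14 endothelial markers was higher in deleted cells at every time, 9.23 against 8.31 at 0 h, 9.20 against 8.19 at 2 h and 9.08 against 8.36 at 24 h. Of them, 9, 13 and 13 were called higher in the deposited values and 0, 8 and 12 after the second quantile normalization. At 24 h 1 was called lower in the deposited values and 1 after the second normalization. Of all genes, 0.677%, 1.2% and 24.3% were called higher at 0, 2 and 24 h, and 0.0301%, 1.26% and 16.5% after the second normalization. The median change of these endothelial markers at 0 h was 0.93 in the deposited values and 0.90 after the second normalization. Of 10 type II markers, 9 were lower in deleted cells at 24 h (8 after the second normalization), with means of 11.78 and 12.50. Of 6 type I markers, 4 were lower (1 after it). At that time 7 of 10 fibroblast and smooth muscle markers were higher (8 after it), as were 8 of the lymphocyte markers (7 after it) and 2 of 5 airway markers (5 after it). Of 11 macrophage markers, 3 were higher and 2 lower (1 and 0 after it). The part of these cells in the immunoproteasome values, and in those of the other members, was not tested.

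Averaged over the 3 times, 1 member was higher and 5 were lower in deleted cells, with a median of -0.07, while 7.13% of all genes were higher and 9.75% lower, and 20.1% to 29.6% of the genes at levels of 8 to 11 were lower. Psmb9 was the higher one, by 0.21 (limma, adjusted p = 0.0284), and was called in 14 of the 18 fits that left out 1 array. The call was lost with the array range as a covariate (adjusted p = 0.251), without both narrowest deleted 24 h arrays (0.0988), with the replicate block (0.0827) and with arrays centred on their medians (0.0576). Psmg2 changed by -0.33 (adjusted p = 0.0101) and was called in all 18, but not with the covariate (adjusted p = 0.324) or without both narrowest arrays (0.0921). Both were also called after the second quantile normalization, at 0.29 and -0.40 (adjusted p = 0.0128 and 0.007).

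The other lower members in the average were Psme1 (-0.23), the alpha subunit Psma2 (-0.21), Psmd8 (-0.20) and Psmb7 (-0.17). None of these 4 was called after the second quantile normalization, which left 2 members higher, Psmb9 and Psme3 (0.15), and 1 lower, beside 6.62% and 7.73% of all genes. Psmb8 changed by 0.14 (limma, adjusted p = 0.119) and Psmb10 by 0.08 (adjusted p = 0.372) in the average.

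Between 0 and 2 h the proteasome genes of control cells were mostly lower at 2 h in the deposited values, with 39 of 48 lower, 1 higher and a median of -0.47. The background was wide here too, with 39.4% of all genes lower and 30.7% higher. Of the genes at levels of 8 to 9, 9 to 10 and 10 to 11, 74.4%, 80.2% and 83.1% were lower, with medians of -0.46, -0.52 and -0.54, so the members' share was close to that of genes of their level. After the second quantile normalization 10 members were lower and 7 higher, beside 20.6% and 21.3% of all genes. Deleted cells had 41 lower and 1 higher over the same interval (median -0.49), beside 36.2% and 26.9% of all genes, and 67.5% to 82.9% of those at levels of 8 to 11 were lower. Their counts were 11 lower and 4 higher after the second normalization, beside 19.4% and 19.3%. Comparisons within a genotype share their 0 h arrays. The 0 h arrays had a wider range of values than all later arrays, so levels across times may not be on the same scale.

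Cell type markers moved over the same interval, beside the shares of all genes given above. At levels of 11 to 12 and 12 to 13, 88.2% and 89.1% of all genes were lower in control cells in the deposited values. In deleted cells 86.7% and 85.9% of them were. All 10 type II markers were lower at 2 h than at 0 h in control cells (median -0.72) and in deleted cells (median -0.74), and after the second quantile normalization 0 of them were called by limma in control cells, while 4 were lower and 1 higher in deleted cells. Of 11 lymphocyte markers, 4 were higher in control cells, and 9 were higher and 1 lower in deleted cells, with 4 and 6 higher after the second normalization. Their part in the members' changes over time was not tested.

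At 24 h against 0 h, control cells had 35 lower and 2 higher members (median -0.40), beside 34.6% and 25.3% of all genes, and 60.6% to 70.4% of those at levels of 8 to 11 were lower. Deleted cells had 43 lower and 2 higher (median -0.83), beside 41.5% and 36.0% of all genes, and 80.1% to 89.6% of those at levels of 8 to 11 were lower. All 31 constitutive subunits were among the lower members. The second quantile normalization left 11 lower and 8 higher in control cells, beside 20.3% and 20.4% of all genes. It left 17 lower and 8 higher in deleted cells, beside 30.5% and 31.1%.

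Psme2 had the largest fall over time. It read 9.85, 9.83 and 9.64 in control cells at 0 h, 7.99, 8.18 and 8.23 at 2 h, and 8.18, 7.98 and 8.02 at 24 h. In deleted cells it read 9.56, 9.71 and 9.94 at 0 h, 8.38, 8.37 and 8.21 at 2 h, and 7.79, 8.12 and 7.99 at 24 h. No array at 2 or 24 h reached the lowest array at 0 h.

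In the deposited values, Psme2 in control cells stood at 32.0% of its 0 h level at 2 h and at 30.4% at 24 h. In deleted cells it stood at 37.5% and 29.4%. These percentages compare arrays of unlike range. The control change at 2 h was -1.64 (limma, adjusted p = 2.08e-08), and -1.15 after the second quantile normalization (adjusted p = 1.7e-06). Its partner Psme1 did not move with it in control cells, at 10.34, 10.29 and 10.38 at 0 h and 10.12, 10.30 and 10.33 at 2 h (change -0.09, adjusted p = 0.524). Psme1 was higher at 2 h, by 0.43, after the second quantile normalization.

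Psmb2, a beta subunit without a proteolytic site, followed Psme2 in size. It read 9.89, 9.83 and 9.74 in control cells at 0 h and 8.59, 8.71 and 8.79 at 2 h, a change of -1.13 (limma, adjusted p = 1.7e-07) that was -0.61 after the second quantile normalization. In deleted cells its change was -1.12 at 2 h and -1.52 at 24 h, and -0.66 and -0.81 after the second normalization. Psmd14, the deubiquitinase of the lid, read 10.08, 10.16 and 9.98 in control cells at 0 h and 8.98, 9.10 and 9.34 at 2 h (change -0.93, and -0.41 after the second normalization). For both genes the 0 and 2 h arrays stood apart.

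Among the immunoproteasome subunits, Psmb8 fell over time under both normalizations. It read 8.13, 8.10 and 8.01 in control cells at 0 h and 7.19, 7.39 and 7.32 at 2 h, a change of -0.78 (limma, adjusted p = 5.67e-06), and -0.49 after the second quantile normalization (adjusted p = 0.000576). In deleted cells it read 8.10, 8.34 and 8.28 at 0 h, and its change was -0.55 at 2 h and -0.96 at 24 h. Psmb10 changed by -0.35 in control cells at 2 h (adjusted p = 0.00792), but by -0.0031 after the second normalization.

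Psmb9 was not called in control or deleted cells at 2 or 24 h against 0 h in the deposited values, with changes of -0.07, -0.13, -0.16 and -0.17. Its change in deleted cells at 24 h was 0.47 after the second quantile normalization (limma, adjusted p = 0.00402). Of the constitutive counterparts, Psmb6 changed by -0.44 and Psmb7 by -0.49 in control cells at 2 h, and by 0.08 and 0.04 after the second normalization.

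**Figure D5:**
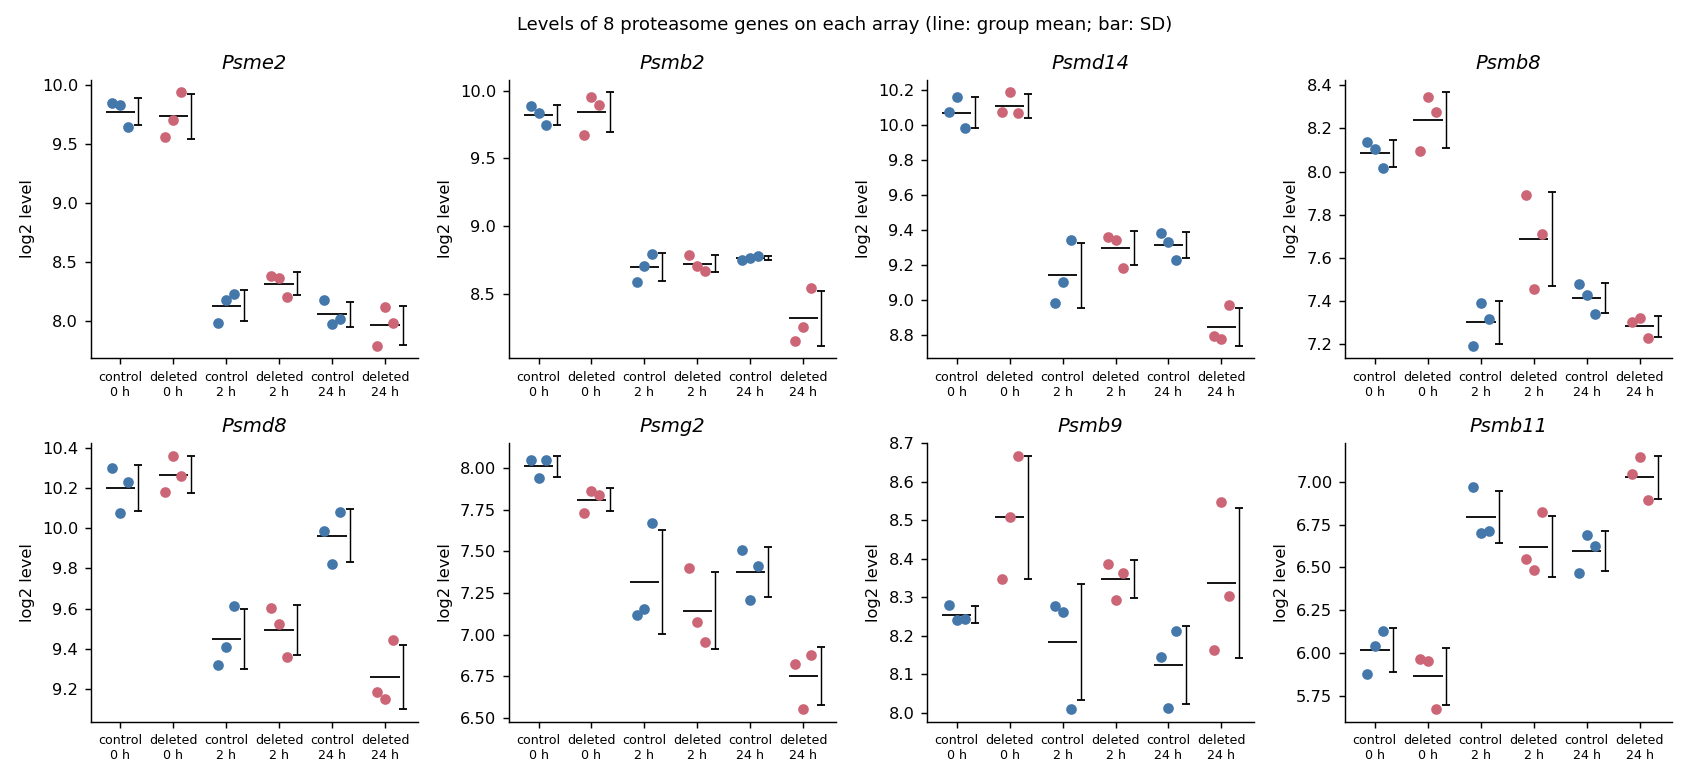
Log2 level on each array of selected proteasome genes at the 3 times in both genotypes, 1 point per array, with a line at the group mean and a bar of 1 SD. Psme2 drops from 9.64 to 9.85 in control cells at 0 h to 7.99 to 8.23 at 2 h, and Psmb11 moves the opposite way.

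In control cells at 2 h, 9 members were lower under both normalizations: Psmb2, Psmb4, Psmb5, Psmb8, Psmc4, Psmd8, Psmd14, Psme2 and Psmg2. They belong to the core, the immunoproteasome, the ATPases, the non-ATPases, the activators and the chaperones. The 4 whose promoter stretches are printed above are among them. The ATPases Psmc2 and Psmc5 were lower in the deposited values but higher after the second normalization. At 24 h 11 members were lower both ways in control cells, among them the chaperones Psmd5 (change -0.83) and Psmd10 and the ATPase Psmc4 (-0.81), and 16 were in deleted cells, led in size by Psme2, Psmb2, Psmb3 (-1.42) and Psmd10 (-1.36). In deleted cells at 24 h, Psma1, Psma3, Psmc5, Psmd11, Psme3 and Psme4 were lower in the deposited values but higher after the second normalization. The shares of all genes lower both ways were not counted. After the second normalization alone, 20.6% were lower in control cells at 2 h, 20.3% at 24 h, and 30.5% in deleted cells at 24 h.

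Psmb11 was the member that rose at both times in both genotypes under both normalizations. It read 5.88, 6.04 and 6.13 in control cells at 0 h and 6.97, 6.70 and 6.71 at 2 h (change 0.78, limma, adjusted p = 2.16e-05). In deleted cells it read 5.97, 5.96 and 5.67 at 0 h, 6.55, 6.49 and 6.82 at 2 h and 7.04, 7.14 and 6.89 at 24 h. Its change in deleted cells at 24 h was 1.16, and 0.98 after the second normalization. The chaperone Psmg4 was higher at 24 h than at 0 h in the deposited values of control (0.23) and deleted (0.25) cells, and its changes after the second normalization were 0.10 and -0.04.

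From 2 to 24 h, 4 members rose and none fell in control cells by limma, with a median of 0.02, while 7.97% of all genes rose and 4.46% fell. Psmd8 rose by 0.52 (limma, adjusted p = 0.00432), from 9.32, 9.41 and 9.61 at 2 h. The nuclear activator Psme4 rose by 0.51 (adjusted p = 0.00116) and Psmg1 by 0.45 (adjusted p = 0.0112), and these 3 were also higher after the second quantile normalization, under which 8.02% of all genes were higher and 5.74% lower. Psma3 rose by 0.26 (adjusted p = 0.0367), a call lost in all 6 fits that left out 1 array and after the second normalization.

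In deleted cells over the same interval 29 members fell and 1 rose, with a median of -0.33, while 19.6% of all genes fell and 11.8% rose. Of the genes at levels of 8 to 9, 9 to 10 and 10 to 11, 44.5%, 51.8% and 53.0% fell, with medians of -0.27, -0.30 and -0.32. Over this interval 9 of 10 type II markers fell too (median -0.66), and 7 did after the second normalization. The second quantile normalization left 7 lower and 4 higher, beside 13.1% of all genes in each direction. The 7, all lower in the deposited values too, were Psmb3, Psmb8, Psmd5, Psmd10, Psmd12, Psmf1 and Psmg2. The largest falls were those of Psmb3 (-0.73), Psmd10 (-0.71) and Psmd5 (-0.62). Psmb9 and Psmb10 changed by -0.01 and 0.0007 in this interval.

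The interaction of genotype with time tests whether the genotypes moved differently. For 24 h against 0 h it was called for 19 members toward lower in deleted cells and for 1 toward higher (median -0.38), beside 8.88% and 5.46% of all genes, and 19.4% to 29.5% of those at levels of 8 to 11 were called toward lower. The second quantile normalization left 1, toward lower, beside 3.12% of all genes lower and 2.96% higher. For 24 h against 2 h it was called for 22 toward lower and 2 toward higher (median -0.39), beside 16.5% and 14.3% of all genes and 38.0% to 46.1% toward lower at levels of 8 to 11, and after the second normalization for 2 and 1, beside 6.08% and 6.94%. Without the deleted 24 h arrays numbered 1 and 2, no member was called by limma in either (9 in each at an unadjusted p below 0.05).

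Psmd8 was the member called for both intervals under both normalizations. Its interaction was -0.77 for 24 h against 0 h (limma, adjusted p = 0.0124) and -0.75 against 2 h (adjusted p = 0.00564), and -0.44 and -0.38 after the second quantile normalization. From 2 to 24 h Psmb8 (-0.52, adjusted p = 0.0182) and Psmb11 (0.60, adjusted p = 0.0164) were also called under both. The Psmb8 levels went from 7.89, 7.46 and 7.71 at 2 h to 7.30, 7.32 and 7.23 at 24 h in deleted cells, and from 7.19, 7.39 and 7.32 to 7.48, 7.43 and 7.34 in control cells.

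Genes that work with the proteasome were read from lists beside the members. At 0 and 2 h none of them was called by limma, with none at an unadjusted p below 0.05 at 0 h, and 4 of 9 immunoproteasome regulators and 2 of 8 class I supply genes at 2 h. At 24 h, 12 of 13 partners (shuttle factors, deubiquitinases and associated proteins) were lower, with a median of -0.40, and 2 were after the second quantile normalization. The counts of this and the following lists stand beside 26.4% of all genes lower, and 59.1% to 68.7% at levels of 8 to 11. In the deposited values 24.3% of all genes were higher, and after the second quantile normalization 16.5% were higher and 17.1% lower. The largest changes were those of the shuttle factor Rad23b (-0.63), the deubiquitinase Usp14 (-0.50), the adaptor Ecpas (-0.49) and Sem1 (-0.44), a small lid subunit whose symbol falls outside the rule.

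Of 7 genes of the NRF1 pathway, by which cells raise proteasome transcription when degradation is impaired, 5 were lower at 24 h (median -0.32). Nfe2l1, which encodes NRF1 itself, changed by -0.32, and Sel1l, Ngly1 and Ufd1, which act in its retrotranslocation and processing, by -0.63, -0.53 and -0.53. After the second normalization Nfe2l1 changed by 0.03 (limma, adjusted p = 0.761). Sel1l (-0.29) and Ngly1 (-0.21) were the 2 of the 7 that were lower, and Vcp was higher (0.26). Uba6, a ubiquitin-activating enzyme, changed by -0.44 and was not called after the second normalization.

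Of 8 genes that supply peptides to MHC class I, 3 were lower at 24 h: Tapbp (-0.40), Erap1 (-0.28) and Canx (-0.20). After the second normalization none was lower by limma, while the transporter subunit Tap2 (0.30) and the chaperone Pdia3 (0.27) were higher. Of 9 regulators of the immunoproteasome, 2 were higher, 0 were lower and 7 were not called at 24 h by limma, with a median of -0.0002, and 5 were higher after the second normalization (median 0.35). Nlrc5, the transactivator of class I genes, was higher by 0.96 (limma, adjusted p = 0.000328) and by 1.35 after the second normalization. The interferon-gamma receptor chain Ifngr1 was higher by 0.43, and by 0.80 after it. In the average over times 1 class I gene was higher, the transporter subunit Tap1 (0.22, limma, adjusted p = 0.0311), as was 1 regulator. Of the 13 partners, 2 were lower, among them Rad23b, at -0.29 (adjusted p = 0.00309). Of the 7 NRF1 pathway genes, 3 were lower, Ngly1 (-0.24), Sel1l (-0.24) and Nfe2l1 (-0.15), and Uba6 was too (-0.20). These calls stand beside 7.13% of all genes higher and 9.75% lower.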

How the data were processed

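Total RNA was labelled with biotin following Affymetrix protocols and hybridized to 18 arrays, 3 in each of 6 groups. The authors deposited log2 values, and RMA is the tool that the submitters' processing notes name. Its version, and which arrays were normalized together, are not given in the sources used here. Samples were grouped by the genotype and time in their titles.

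Of 35557 features, 21789 had 1 gene symbol, 1621 several and 12147 none. The feature with the highest mean over the arrays stood for each of 19938 genes (999 had several), with no filter on low values. A mean per group was fitted per gene over all 18 arrays with limma 3.58.1 in R 4.3.3 (lmFit, eBayes). Two-sided p-values were adjusted with the Benjamini-Hochberg procedure over the whole table, with calls below 0.05. The number of arrays limits the precision. The fit was tested on simulated data.

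The text names the inducible subunits, their counterparts, Psme1, Psme2, both genes that are no subunits, and in each comparison up to 5 called members with the largest changes each way, or the 3 of smallest p where fewer than 3 were called. Of the other lists it names up to 4. Other genes named were chosen after their values were seen. The members and lists were chosen with earlier results of these data known. Replicate numbers were not used as pairs in the main fit. Same-numbered arrays had correlations of deviations between -0.24 and 0.06, and differently numbered arrays at 2 h between -0.57 and 0.63. With 3 arrays a group, these values cannot decide whether arrays were paired.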

Additional observations from a re-analysis of the deposited data

Results flagged for a closer look

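For 19 named interactions, the change over time differed between genotypes in the limma fit of the deposited values. From 0 to 24 h the interaction, deleted minus control, was 0.58 for Psmb11, -0.77 for Psmb3, -0.77 for Psmd8, -0.70 for Psmb1, -0.66 for Psmg1, -0.65 for Psmd10, -0.54 for Psmb7 and -0.52 for Psmb6. From 2 to 24 h it was 0.61 for Psma8, 0.60 for Psmb11, -0.75 for Psmd8, -0.67 for Psmg1, -0.62 for Psmd14, -0.60 for Psmd10, -0.56 for Psmd4, -0.53 for Psmb7, -0.52 for Psmb8, -0.49 for Psme1 and -0.38 for Psmb6. After the second quantile normalization, Psmd8 in both intervals and Psmb8 and Psmb11 from 2 to 24 h were called among them.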

How the results depend on the processing

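Most counts of called members moved with the scaling of the arrays. The share of all genes called was not counted for the alternative fits, here or above, except the second quantile normalization and the upper 60% of genes. Counts from the other fits therefore cannot be set against all genes. With the array range as a covariate they were 1, lower, for the genotypes at 2 h, 0 at 24 h, 0 for their average, 2 and 8 for control cells at 2 and 24 h against 0 h, 2 and 0 for deleted cells, and 0 for deleted cells from 2 to 24 h and for both interactions. After the second quantile normalization they were 12 at 24 h, 3 for the average, 17 and 19 for control cells, 15 and 25 for deleted cells, 11 for deleted cells from 2 to 24 h, and 1 and 3 for the interactions, and the Psmb8 and Psmb5 pair fell to 0.11. Without both narrowest 24 h arrays, chosen after seeing the data, they were 0 at 24 h, for the average, for deleted cells from 2 to 24 h and for both interactions. At an adjusted p below 0.01 they were 0 for the average, 2 for control and 17 for deleted cells from 2 to 24 h, and 0 and 3 for the interactions. With only the groups compared in the fit they were 7 for deleted cells from 2 to 24 h and 15 for the later interaction. With only the upper 60% of genes, 1 was called higher at 2 h. With the replicate number as a block the average gave 3, all lower and without Psmb9, and the block moved no other genotype count by over 1.5 times; the time comparisons have no such fit. Leaving out 1 array gave 0 to 1 at 0 h (1 without deleted 0 h number 1), 23 to 32 at 24 h, 1 to 12 for the average (lowest without control 2 h number 3, highest without deleted 24 h number 4), 2 to 4 for control and 17 to 33 for deleted cells from 2 to 24 h, and 1 to 27 and 7 to 31 for the interactions, with no sign turned in a named gene. Centring on medians and averaging features moved no count by over 1.5 times. The array range set the 0 h arrays apart from the later ones and the genotypes apart at 24 h. The covariate fit cannot tell these differences from the range. The cause was not tested.

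Named changes turned sign as follows. With the covariate at 24 h, Psmg2 was 0.0377, Psmb1 0.12 and Psmb3 0.11, and after the second quantile normalization Psmb5 was 0.0472 and Psmb6 0.0047. In control cells at 2 h, Psmb6 was 0.0453 with the covariate and 0.0813 after the second normalization, Psmb7 0.0411 and Psme1 0.43 after it. In control cells at 24 h, Psmb6 was 0.0574 and 0.14, Psmb7 0.0237 and 0.14, Psme1 0.36 and Psme3ip1 0.0191. In deleted cells at 2 h, Psmb7 was 0.004 and Psme1 0.39. In deleted cells at 24 h, Psmg4 was -0.0441, Psmb9 0.47, Psmb10 0.0706 and 0.13, Psme1 0.43 and 0.17, and Psme3ip1 0.37. In the later interaction with the covariate, Psmd10 was 0.0895, Psmb6 0.026 and Psme1 0.15. Array signal relative to background was not used here.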

Other observations

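For 5 members more than 1 array feature carried the gene's single symbol, and these features agreed in sign at 24 h. The changes, deleted minus control, were -0.15, -0.18 and -0.12 for Psma3, -0.20 and -0.31 for Psma5, -0.58 and -0.37 for Psmb3, -0.21 and -0.12 for Psmc1, and -0.38 and -0.21 for Psmd2. One feature assigned to both Psme2 and Psme2b was left out, so the Psme2 values rest on a feature assigned to Psme2 alone.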
